A study of Mus musculus with 9 samples.

Results

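Tdh, L1td1, Mylpf, Dusp27, Atf7ip2, Morc1 and Gtsf1 are 7 mouse genes chosen by name as a set for early arrival of the histone variant H3.3, and they are 7 of the 37273 genes of the annotation used. The study's primer list for H3.3 holds Dusp27, Atf7ip2 and Morc1, and its text places Gtsf1 among the genes downstream of H3.3. For Tdh, L1td1 and Mylpf the link with H3.3 was taken from the choice and was not checked here. The study measured H3.3 by ChIP-Seq, and those values were not used. The rule of the choice used no accessibility value, but the set was chosen with earlier results of these data known. Chromatin accessibility had been measured by ATAC-Seq, in which the Tn5 transposase inserts adapters where DNA is open, in mouse embryonic fibroblasts (MEFs) carrying a green fluorescent reporter at Oct4 and infected with retroviruses for Oct4, Sox2, Klf4 and c-Myc (OSKM) on their way to induced pluripotent stem cells (iPSCs). The time course held 7 libraries, namely unsorted MEFs at D0, unsorted cells at D3, cells without the fibroblast surface protein Thy-1 at D6 and D9 (D6T- and D9T-), cells with the pluripotency surface antigen SSEA-1 at D12 and D16 (D12S+ and D16S+), and unsorted, fully reprogrammed iPSCs. A further 2 libraries came from D6 cells that had received, before OSKM, siRNA against H3.3 (D6 siH3.3) or a non-targeting siRNA (D6 siNT). GEO's labels call the siRNA cells Thy-1-, whereas the study's own library list gives no sorting for them. There was 1 library per condition, so no difference between conditions has a replicate check, no p-value is given, and every interval printed is a 95% interval of the tag count that covers counting error only. H3.3 itself was not analysed here.

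H3.3 is placed into chromatin outside DNA replication, at active genes and regulatory elements by the chaperone Hira and at silent repeats by Daxx and Atrx. The 7 genes fall into 3 roles. Tdh encodes threonine dehydrogenase, the mitochondrial enzyme by which mouse pluripotent cells turn threonine into glycine and acetyl-CoA, and L1td1 encodes an RNA-binding protein derived from a LINE-1 retrotransposon and found in pluripotent cells. Atf7ip2, Morc1 and Gtsf1 belong to silencing in the germline, where ATF7IP proteins partner the H3K9 methyltransferase SETDB1, MORC1 is an ATPase that represses transposons in male germ cells, and GTSF1 assists the PIWI proteins that act with piRNAs. Mylpf encodes the regulatory light chain of fast skeletal muscle myosin, and Dusp27 a phosphatase-like protein of muscle without the catalytic residue.

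An accessible region was counted for a gene where it overlapped the stretch from 3 kb upstream of the transcription start site (TSS) to the end of the gene by at least 1 bp. Its strength is the pileup, the number of tags extended to 200 bp over the summit, given as CPM, that is, per 1000000 tags of the library. The libraries held 13213117 to 31714845 tags and 36708 to 133132 regions, and the weakest region listed had between 7 tags (D9T-) and 11 tags (D0), so a gene without a region may still hold weaker accessibility. At 13042 places with a region in all 9 libraries, the median pileup was 0.851 CPM (D0), 2.02 (D3), 3.46 (D6T-), 1.36 (D9T-), 2.16 (D12S+), 2.03 (D16S+), 1.09 (iPSCs), 1.29 in D6 siH3.3 and 1.24 in D6 siNT. The whole scale therefore moved between libraries, and a pileup divided by this median, called the relative pileup below, is given wherever it changes the reading. The weakest region listed was at a relative pileup of 0.407 at D0, 0.389 at D9T- and only 0.108 at D6T-. Of 9 pluripotency markers, 2 had a promoter region at D0, 1 in D9T-, 7 in D12S+ and 9 at D16S+ and in iPSCs. The fibroblast markers separated the libraries less, with 6 of 8 at D0, 8 at D3, 7 in D6T-, 6 in both D12S+ and D16S+ and 4 in D9T- and iPSCs. In D6 siH3.3 and D6 siNT, 0 and 1 of the 9 pluripotency genes had a promoter region, against 4 of 9 at D6T-.

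All 7 genes had a region somewhere in the window at D3, D6T-, D16S+ and in iPSCs. At D0 a region was listed for 6 of 7, beside 51.5% of all genes. Beside 7 of 7, the shares of all genes were 57.9% at D3, 58.8% in D6T-, 50.9% in D16S+ and 52.4% in iPSCs. In D9T- 5 of 7 members stood beside 41.7%, in D12S+ 6 of 7 beside 51.5%, and in the siRNA libraries 44.9% for D6 siH3.3 and 45.2% for D6 siNT (5 of 7 in both). Among protein-coding genes alone, the share was 70.1% at D0, 76.3% at D3 and in D6T-, 58.7% in D9T- and 70.3% in D12S+. It was 69.9% in D16S+, 71.4% in iPSCs, 62.6% in D6 siH3.3 and 62.9% in D6 siNT. Tdh was first listed at D3, as were 8.5% of all genes, and the other 6 were listed at D0. That D3 region, at 0.331 CPM, lay under the weakest that D0 lists, 0.347 CPM, so its absence at D0 cannot be told apart from its D3 level. A region in every one of the 9 libraries was found for L1td1, Mylpf, Dusp27, Atf7ip2 and Morc1, 5 of 7, beside 35.8% of all genes. The strongest pileup in CPM was higher at D16S+ than at D0 in 7 of 7, against 46.5% of all genes. On the relative scale it was higher in 5 of 7, against 24% of all genes, and lower for Mylpf (2.05 against 2.41) and Atf7ip2 (0.977 against 1.07). In both counts a gene without a region was set to 0, which made Tdh higher at D16S+. For L1td1, Dusp27, Morc1 and Gtsf1 the D0 and D16S+ values came from different places. On the relative scale their intervals overlapped for Morc1 and Gtsf1 (0.556 against 0.674), and not for L1td1 and Dusp27. The D3, D16S+ and iPSC regions of Gtsf1 lie in repeated sequence, described with that gene. Without such places 6 of 7 genes had a region in each of those libraries, and 6 of 7 were higher at D16S+ than at D0 in CPM and 4 of 7 on the relative scale. The shares of all genes without such places were not computed. The plot of the strongest region of each gene by library shows these values.

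**Figure D1:**
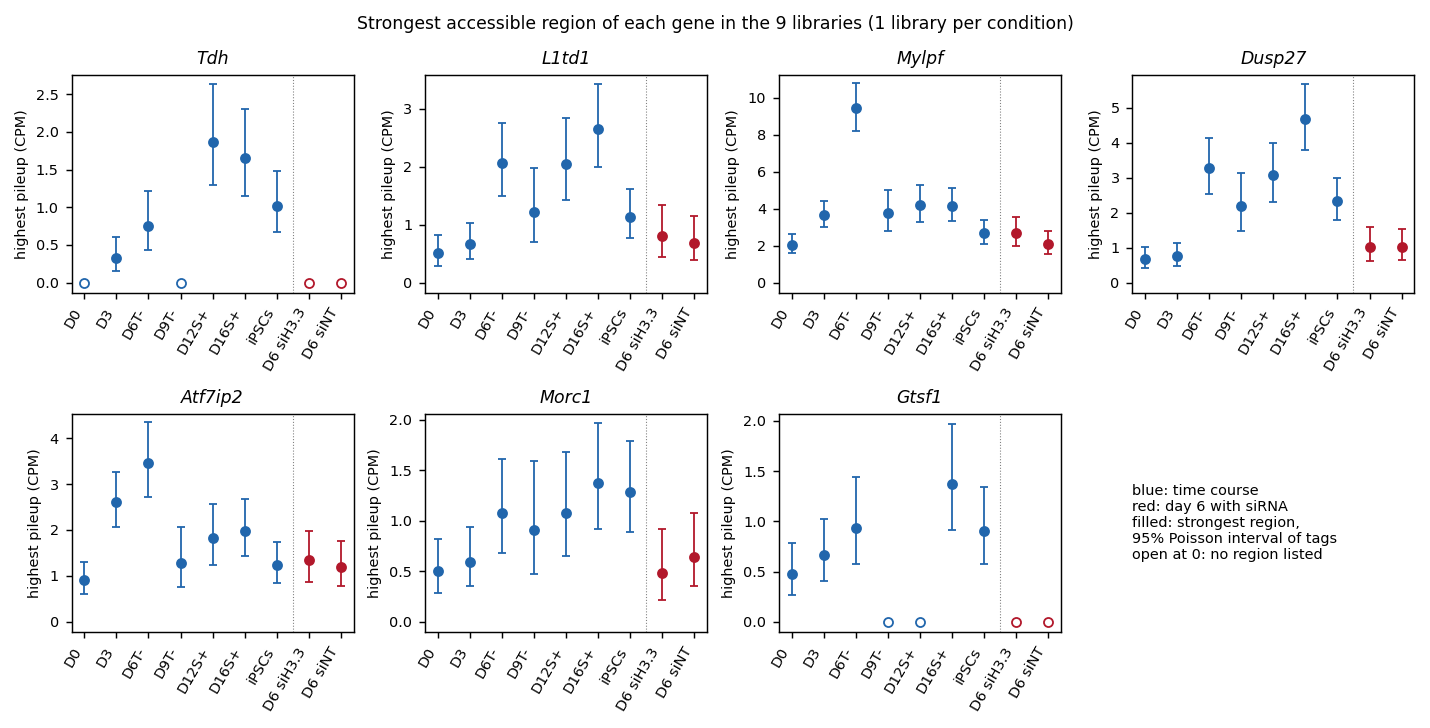
Highest pileup in CPM (vertical axes, which differ between panels) for each of the 7 genes in the 9 libraries (horizontal axes), as filled points with 95% Poisson intervals of the tags. Open circles at 0 mark libraries that list no region, as for Tdh at D0, D9T- and both siRNA libraries, and Dusp27 reached 4.68 at D16S+ against 0.662 at D0.

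Within a library, 25 of the 55 pairs of a gene and a library with a region had exactly 1 region, but the place often differed between libraries. Joined across libraries where they overlapped, the regions of the 7 genes made 43 places, of which 35 had their summit in an intron, 8 contained an annotated TSS of the gene itself and 15 were seen in 1 library only. Of the 43 places, 6 were called at D0, 13 at D3, 19 in D6T-, 8 in D9T-, 18 in D12S+, 26 in D16S+ and 23 in iPSCs. A total of 16 places was not listed at D0 and listed both at D16S+ and in iPSCs. At D16S+, 5 of these 16 were under the weakest relative pileup of D0, 0.407, so D0 could not have listed them at that level. Counted per gene, a D16S+ region at a spot without a D0 region but with an iPSC region was found in Tdh, L1td1, Mylpf, Dusp27, Morc1 and Gtsf1, 6 of 7 beside 21% of all genes and 29.2% of protein-coding genes. Such spots were present already at D3 in Tdh, L1td1, Dusp27 and Gtsf1, 4 of 7 beside 18.1% of all genes, and at D6T- in Tdh, L1td1, Dusp27 and Morc1, 4 of 7 beside 18.3%. Among protein-coding genes the share was 25.9% at D3 and at D6T-. All 6 places behind the D3 count, and 4 of 6 behind that of D6T-, were under 0.407 there, and the exceptions at D6T- were L1td1 at +1.43 kb and Dusp27 at +2.53 kb. Without places of repeated sequence the counts were 5 of 7 at D16S+ and 3 of 7 at D3, for which no share of all genes was computed. Windows differ in length (5.69 kb for Mylpf, 203 kb for Morc1), and a longer window has more room for a region. The map of places by distance from the TSS shows all 43.

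**Figure D2:**
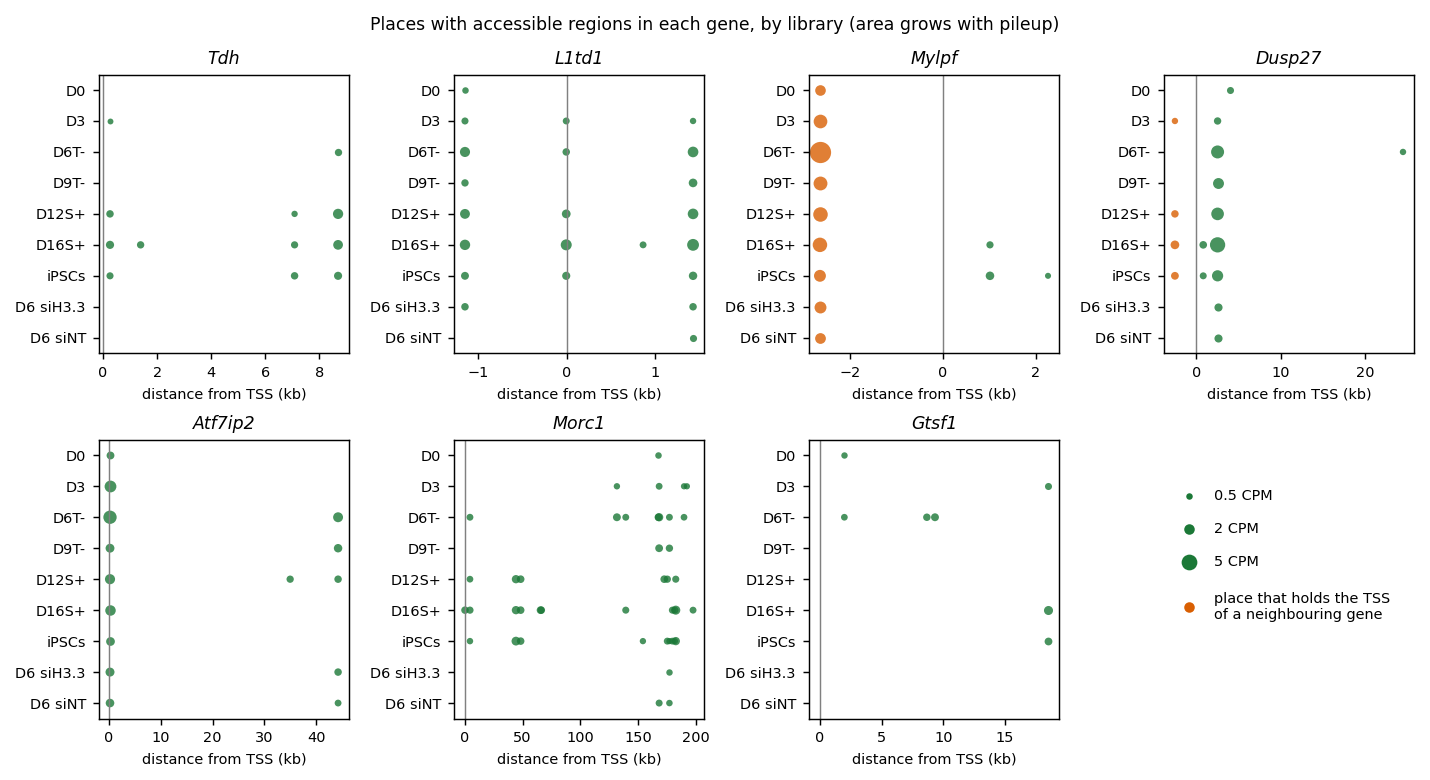
Places with accessible regions in the 7 genes, by distance of the summit from the TSS in kb (horizontal axes) and library (rows), with point area growing with the pileup in CPM. Orange points mark the 2 places that hold the TSS of a neighbouring gene, and the Mylpf place at -2.64 kb is one of them and is present in all 9 libraries.

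Tdh (ENSMUSG00000021953.8, chr14:64111184-64127929 on mm9, minus strand) went from no listed region at D0 to several in the late cells. Its strongest place lay at +8.7 kb, inside the gene at an internal TSS, and held 16 tags at D6T-, 33 at D12S+, 35 at D16S+ and, in iPSCs, 27. No region was listed there at D0, D3, D9T-, D6 siH3.3 or D6 siNT. In CPM this place stood at 0.748 (0.428 to 1.21) in D6T- and 1.87 (1.29 to 2.63) in D12S+, intervals that do not overlap, with 1.65 at D16S+ and 1.02 in iPSCs. On the relative scale the step was larger, from 0.216 (0.124 to 0.351) in D6T- to 0.868 (0.598 to 1.22) in D12S+. The 3 late libraries differed by less than their counting error on that scale, with 0.814 (0.567 to 1.13) at D16S+ and 0.931 (0.614 to 1.35) in iPSCs. The first region of the gene in time was another one, near the upstream TSS (+0.255 kb), with 10 tags at D3, a −log10 q-value of 1.51 and a relative pileup of 0.164, the weakest value listed in that library. It was not listed at D6T- or D9T- and returned with 14 (D12S+), 22 (D16S+) and 18 tags (iPSCs). The absence at D9T- is not informative for a place as weak as at D6T-, since 0.216 lies under the weakest relative pileup of 0.389 that D9T- lists. A further intronic place at +7.09 kb was listed from D12S+ on, with 8, 15 and lastly 21 tags.

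The +8.7 kb place is shown by its motif matches, because short sequences bound by the reprogramming factors lie within it. The D12S+ region of 865 bp holds 1 match each to the octamer ATGCAAAT, bound by Oct4, to the Sox sequence ACAAAGG and to the AP-1 sequence TGANTCA, all of them in the intron. Capitals mark the match, the strand is that of the gene, and the octamer and the Sox sequence appear as their reverse complements.
Tdh octamer, chr14:64119397-64119434: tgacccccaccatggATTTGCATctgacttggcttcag
Tdh Sox, chr14:64119339-64119375: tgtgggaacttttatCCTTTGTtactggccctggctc
Of all D12S+ regions, taken as windows of the same length around the summit, 5.2% hold the octamer, 18.8% ACAAAGG and 31.1% the AP-1 sequence.

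L1td1 (ENSMUSG00000087166.3, chr4:98393425-98405171, plus strand) had 3 recurrent places within 1.5 kb of its TSS, and they followed different courses. The upstream place at -1.15 kb was open in MEFs already, with 16 tags (D0), 20 (D3), 39 (D6T-), 10 (D9T-), 30 (D12S+), 41 (D16S+) and, in iPSCs, 25. Its relative pileup stayed between 0.328 (D3) and 0.953 (D16S+). The place over the TSS was listed with 19 tags (D3), 17 (D6T-), 22 (D12S+), 47 (D16S+) and 27 (iPSCs), and not at D0, D9T- or in the siRNA libraries. The intronic place at +1.43 kb appeared at D3 with 14 tags and then held 44 (D6T-), 16 (D9T-), 36 (D12S+), 56 (D16S+) and 30 (iPSCs). Its relative pileup was 0.23 (0.125 to 0.385) at D3, 0.595 (0.432 to 0.798) at D6T- and 1.3 (0.984 to 1.69) at D16S+, and no 2 of these intervals overlap. The values between, 0.889 at D9T- and 0.947 at D12S+, and that of iPSCs, 1.03, lay within the interval of a neighbour. At D3 both newly listed places had relative pileups (0.311 and 0.23) under the weakest that D0 could list (0.407), so their absence at D0 was not distinguishable from their D3 level on that scale. The level of the gene's strongest region was 0.504 (0.288 to 0.819) CPM at D0, at -1.15 kb, and 2.64 (2 to 3.43) at D16S+, at +1.43 kb. Those intervals do not overlap, but the places differ. At -1.15 kb itself the relative pileup was 0.593 (0.339 to 0.962) at D0 and 0.953 (0.684 to 1.29) at D16S+, and those intervals overlap.

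The intronic place of L1td1 is printed because its D16S+ region of 817 bp holds 2 matches to the octamer, a sequence found in 5.13% of D16S+ regions in windows of that length. No match to the other motifs searched was in it. The 201 bases around the summit follow on the strand of the gene, with the reverse complement of the octamer in capitals, and then the second match with its flanks.
L1td1 +1.43 kb, chr4:98394750-98394950: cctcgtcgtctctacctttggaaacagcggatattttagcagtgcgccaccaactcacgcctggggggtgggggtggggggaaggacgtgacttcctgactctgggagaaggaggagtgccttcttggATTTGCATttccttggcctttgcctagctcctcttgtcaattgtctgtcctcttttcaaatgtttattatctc
L1td1 second octamer, chr4:98394700-98394737: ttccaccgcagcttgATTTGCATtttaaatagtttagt

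Atf7ip2 (ENSMUSG00000039200.9, chr16:10192805-10243144, plus strand) was open at its promoter throughout. The region at +0.192 kb, which contains 5 annotated TSSs, held 29 tags (D0), 79 (D3), 74 (D6T-), 17 (D9T-), 32 (D12S+), 42 (D16S+) and, in iPSCs, 33, and 25 and 26 in D6 siH3.3 and D6 siNT. In CPM it peaked at D6T- with 3.46 (2.72 to 4.34) against 0.914 (0.612 to 1.31) at D0. Relative to the shared places it was nearly level, from 0.842 (0.576 to 1.19) at D12S+ to 1.3 (1.03 to 1.61) at D3, with 1.07 at D0 and 1 at D6T-. A second, intronic place at +44.2 kb held 37 tags (D6T-), 15 (D9T-), 14 (D12S+), 15 in D6 siH3.3 and 13 in D6 siNT, and was listed neither at D0 and D3 nor at D16S+ and in iPSCs. Its relative pileup was 0.5 (0.352 to 0.689) in D6T- and 0.833 (0.466 to 1.37) in D9T-, and both intervals lie above the weakest value that D3 (0.164), D16S+ (0.209) and iPSCs (0.345) list. The weakest that D0 lists, 0.407, lies within the D6T- interval. At D12S+ the place was at 0.368 (0.201 to 0.618). Its 201 bases, without a match to any motif searched, are shown because this was the one recurrent place of Atf7ip2 outside the promoter. It was seen in D6 and D9 cells but in neither MEFs nor iPSCs, as was a Morc1 place at +168 kb.
Atf7ip2 +44.2 kb, chr16:10236939-10237139: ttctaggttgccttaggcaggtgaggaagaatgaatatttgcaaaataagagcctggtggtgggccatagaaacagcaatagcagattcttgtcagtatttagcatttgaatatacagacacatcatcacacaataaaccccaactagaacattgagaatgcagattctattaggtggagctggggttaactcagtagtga

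Morc1 (ENSMUSG00000022652.6, chr16:48431350-48631018, plus strand) spans a window longer than that of 95.7% of protein-coding genes, and its accessibility consisted of many, mostly weak places rather than a promoter. A total of 20 places was found, 19 of them intronic, and the number of regions was 1 (D0), 4 (D3), 7 (D6T-), 2 (D9T-), 6 (D12S+), 11 (D16S+) and, in iPSCs, 9. Per Mb of window this was 4.93 at D0 against 30.6 regions per Mb over the genome, 34.5 against 50.1 at D6T-, and 54.3 against 19.2 at D16S+. The gene thus lay below the genome's density early and above it late, also in iPSCs, with 44.4 against 23.2. Of the 11 places at D16S+, the 2 at +65.5 and +66.2 kb lie in repeated sequence. The TSS itself was listed only at D16S+, with 17 tags. Places at +44.2, +48.3 and +183 kb were shared by D12S+, D16S+ and iPSCs and by no other library, with 19, 23 and 34 tags, 15, 18 and 22 tags, and 12, 29 and 29 tags. Places at +132 kb (14 and 20 tags) and +190 kb (13 and 12 tags) were listed at D3 and D6T- only. The strongest region stood at 0.504 (0.288 to 0.819) CPM at D0 and 1.37 (0.917 to 1.97) at D16S+, at different places of the gene. On the relative scale those values were nearly level, 0.593 (0.339 to 0.962) and 0.674 (0.452 to 0.969). In iPSCs the strongest place, at +44.2 kb, had a relative pileup of 1.17 (0.812 to 1.64), an interval that overlaps that of D0. The +183 kb place was at 1 (0.67 to 1.44) in iPSCs, and neither of these places was listed at D0.

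Gtsf1 (ENSMUSG00000022487.8, chr15:103232836-103260901, minus strand) changed place between libraries. At D0 it was listed at +1.98 kb with 15 tags, at D3 at +18.5 kb with 20 tags, and at D6T- at +9.33, +8.67 and +1.98 kb with 20, 17 and 12 tags. No region was listed at D9T-, D12S+, D6 siH3.3 or D6 siNT. At D16S+ and in iPSCs the intronic +18.5 kb place returned alone, with 29 and 24 tags, or relative pileups of 0.674 (0.452 to 0.969) and 0.828 (0.53 to 1.23) against 0.328 (0.2 to 0.506) at D3. Pileups of this size would have been listed at D12S+, where the weakest relative pileup was 0.211. The place is rich in G and C, 65.7% of the 201 bases with 12 CpG, and is a copy of a sequence found many times in the genome. Of its 151 windows of 51 bases, the length of a tag, 67.5% occur more than once in mm9, and the most frequent occurs 3134 times. The Morc1 places at +65.5 and +66.2 kb, both listed at D16S+ only, are further copies, with 95.2% identity over 189 bases and 95.7% over 188 bases to that of Gtsf1. In the other places of the 43, at most 15.2% of the windows were of this kind. The methods removed ambiguously mapped reads, and the part of the repeated sequence in the late Gtsf1 regions was not tested. Without it Gtsf1 was listed at D0 and D6T- only. The Gtsf1 copy and that of Morc1 at +66.2 kb are printed, each on the strand of its gene, to show the likeness, and neither held any of the motifs.
Gtsf1 +18.5 kb, chr15:103242308-103242508: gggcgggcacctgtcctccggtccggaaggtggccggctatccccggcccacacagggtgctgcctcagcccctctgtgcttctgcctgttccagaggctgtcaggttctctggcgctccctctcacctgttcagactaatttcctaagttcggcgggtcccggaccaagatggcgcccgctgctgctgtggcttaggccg
Morc1 +66.2 kb, chr16:48497422-48497622: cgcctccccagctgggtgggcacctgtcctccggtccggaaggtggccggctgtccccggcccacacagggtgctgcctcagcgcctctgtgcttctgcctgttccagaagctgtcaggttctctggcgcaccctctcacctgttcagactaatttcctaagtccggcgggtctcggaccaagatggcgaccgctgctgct

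Mylpf (ENSMUSG00000030672.6, chr7:134355122-134357812, plus strand) was listed in all 9 libraries only through a place that contains the TSS of its neighbour Tbc1d10b. That place, at -2.64 kb from the TSS of Mylpf, held 65 tags (D0), 111 (D3), 202 (D6T-), 50 (D9T-), 74 (D12S+), 88 (D16S+) and, in iPSCs, 71, and its relative pileup lay between 1.7 and 2.78 in every library. Places within Mylpf itself were listed late, at +1.01 kb, which contains 2 alternative TSSs of the gene, with 15 tags at D16S+ and 31 in iPSCs, and at +2.26 kb with 10 tags in iPSCs. The relative pileup at +1.01 kb was 0.349 (0.195 to 0.575) at D16S+ and 1.07 (0.726 to 1.52) in iPSCs. Without regions within 500 bp of the TSS of another protein-coding gene, Mylpf was thus first listed at D16S+ and in 2 of the 9 libraries. The D16S+ value of 0.349 lies under the weakest relative pileup that D0 (0.407) and D9T- (0.389) list. Absence there cannot be told apart from that level.

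Dusp27 (ENSMUSG00000026564.4, chr1:168028284-168058029, minus strand) was dominated by 1 place outside its promoter. The intronic place at +2.53 kb was absent from the D0 list and held 23 tags (D3), 70 (D6T-), 29 (D9T-), 54 (D12S+), 99 (D16S+) and, in iPSCs, 62. In CPM it stood at 0.761 (0.482 to 1.14) at D3, 3.27 (2.55 to 4.13) at D6T- and 4.68 (3.8 to 5.69) at D16S+. The D3 interval overlaps neither of the later intervals. On the relative scale it was 0.377 (0.239 to 0.566) at D3, 0.946 (0.737 to 1.2) at D6T-, 1.61 at D9T-, 1.42 at D12S+, 2.3 (1.87 to 2.8) at D16S+ and 2.14 (1.64 to 2.74) in iPSCs. The intervals of D3, D6T- and D16S+ are apart from each other, and the D3 value lay just under the weakest that D0 lists. The MEF library was open at another spot, +3.94 kb, with 21 tags, which no other library listed and which holds an AP-1 sequence within the 201 bases around its summit. The share of D0 regions that hold this sequence was not computed, so the match has no background beside it. Later regions at -2.51 kb (14, 14, 26 and 24 tags in D3, D12S+, D16S+ and iPSCs) lie at the TSS of the neighbour Gpa33, and a place at +0.834 kb had 18 tags at D16S+ and 17 in iPSCs.

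**Figure D3:**
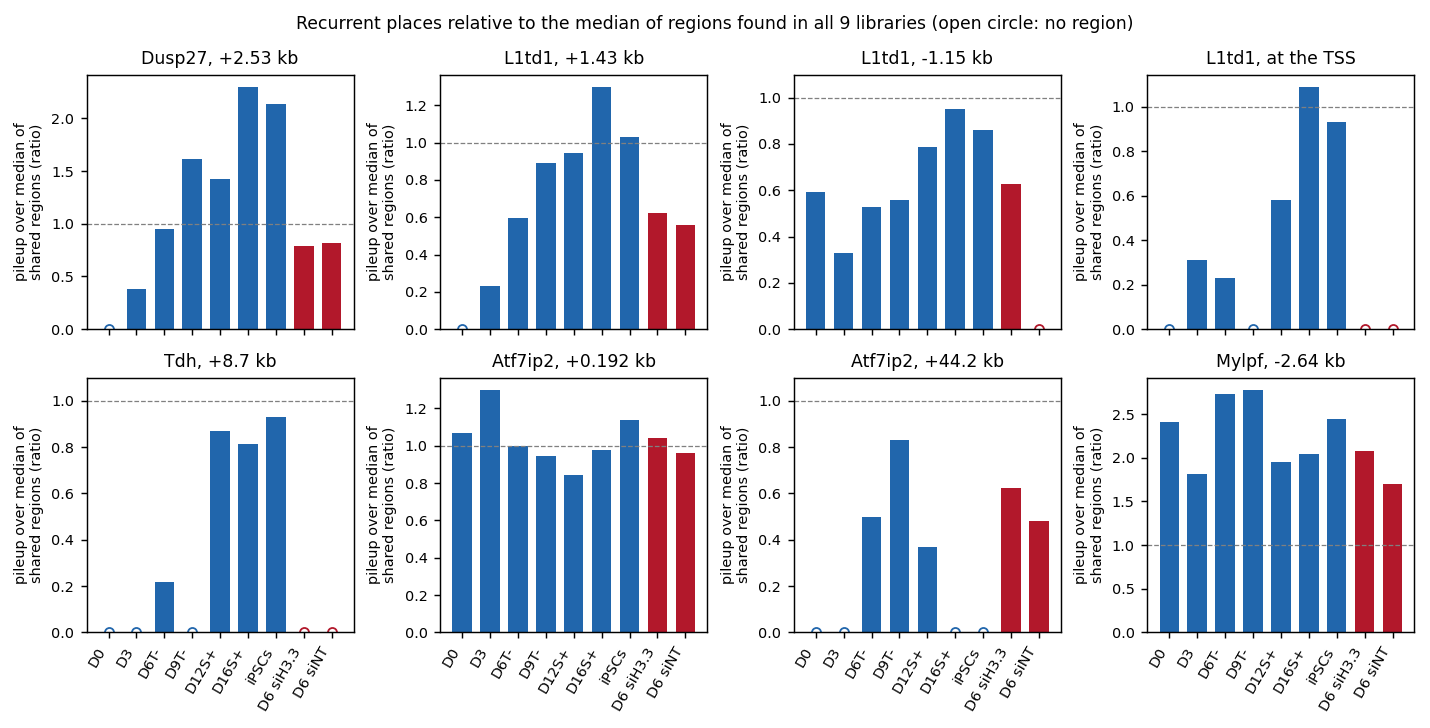
Pileup of 8 recurrent places divided by the median pileup of the regions found in all 9 libraries (vertical axes, a ratio), by library, with blue bars for the time course, red bars for the siRNA libraries and open circles where no region was listed. The dashed line is 1, and Dusp27 at +2.53 kb passed it at D9T- (1.61) and reached 2.3 at D16S+, whereas the Atf7ip2 promoter stayed between 0.842 and 1.3.

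The Dusp27 place is printed beside the piece of DNA at which the study assayed H3.3, since both lie in the same intron. The study's primer list has H3.3 ChIP pairs for Dusp27, Atf7ip2 and Morc1, each primer of which matched mm9 exactly once. The D16S+ region of 772 bp holds 1 match to each of ACAATGG and ACAAAGG (Sox; in 9.69% and 17% of D16S+ regions) and to GGGTGTG (Klf; 20%). The sequence around the summit has the Klf match in capitals, and the amplicons have the primers in capitals.
Dusp27 +2.53 kb, chr1:168055398-168055598, minus strand: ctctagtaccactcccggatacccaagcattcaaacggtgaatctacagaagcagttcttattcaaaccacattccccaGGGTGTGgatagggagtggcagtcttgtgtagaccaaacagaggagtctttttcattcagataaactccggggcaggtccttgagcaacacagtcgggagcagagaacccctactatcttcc
Dusp27 amplicon, chr1:168054827-168054999, plus strand: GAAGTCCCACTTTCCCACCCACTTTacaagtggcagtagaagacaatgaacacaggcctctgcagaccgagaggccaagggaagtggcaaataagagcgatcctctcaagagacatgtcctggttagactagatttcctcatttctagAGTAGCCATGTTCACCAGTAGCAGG
Atf7ip2 amplicon, chr16:10198726-10198867, plus strand: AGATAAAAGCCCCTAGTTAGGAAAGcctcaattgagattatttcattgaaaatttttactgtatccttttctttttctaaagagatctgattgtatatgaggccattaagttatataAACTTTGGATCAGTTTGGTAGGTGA
Morc1 amplicon, chr16:48608021-48608213, plus strand: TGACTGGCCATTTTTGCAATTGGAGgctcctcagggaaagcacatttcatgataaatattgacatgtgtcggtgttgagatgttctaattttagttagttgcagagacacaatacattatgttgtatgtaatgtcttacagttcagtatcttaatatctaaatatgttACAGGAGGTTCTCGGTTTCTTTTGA

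All 3 amplicons were intronic and none lay at a promoter. The Dusp27 amplicon at +3.12 kb bordered the +2.53 kb place: it overlapped the region of iPSCs and was 37 bp from that of D6T-, 62 bp from D16S+, 72 bp from D12S+, 159 bp from D9T- and 204 bp from D3. At D0 the nearest region was the other spot, 625 bp away. The Morc1 amplicon at +177 kb lay 160 to 275 bp from a weak intronic region of 9 to 13 tags in D6T-, D9T-, iPSCs, D6 siH3.3 and D6 siNT, and over 1 kb from any region in the other libraries, 8.88 kb at D0. The Atf7ip2 amplicon at +5.99 kb was 5.12 to 5.59 kb from the nearest region, that of the promoter, in every library. A listed region was thus at most 279 bp away in all libraries but D0 for Dusp27, in 5 of 9 libraries for Morc1 and in none for Atf7ip2.

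The comparison of D6 siH3.3 with D6 siNT asked whether accessibility of these genes differs in cells given siRNA against H3.3. The siRNA acts on mRNA, so regions at the targeted genes do not check the knockdown, and H3f3a and H3f3b had 1.55 and 1.5 CPM in D6 siH3.3 and 1.42 and 1.88 in D6 siNT. Of the 7 genes, 5 had a region in both libraries and 2, Tdh and Gtsf1, had none in either. L1td1 held 15 tags in both, a ratio in CPM of 1.17 (0.532 to 2.56). Mylpf, at the neighbour's promoter, had 50 and 46 tags, a ratio of 1.27 (0.833 to 1.94). Dusp27 had 19 and 22 tags, a ratio of 1.01 (0.516 to 1.95), and Atf7ip2 25 and 26 tags, a ratio of 1.12 (0.621 to 2.02). Morc1 had 9 and 14 tags, a ratio of 0.75 (0.286 to 1.86), but its strongest regions were at different places. At +177 kb, where both libraries had a Morc1 region, the ratio was 0.955 (0.35 to 2.53). No member passed a ratio of 1.5 in either direction, while 6.96% of the 15747 genes with a region in both did so upward and 4.07% downward, and the median over those genes was 1.04. Every interval includes 1, starts at 0.833 or less and ends at 1.86 or more. An increase to 1.86 or a decrease to 0.833 was therefore not excluded for any of the 5 genes.

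A pair of places was listed in 1 siRNA library only. L1td1 at -1.15 kb had 15 tags in D6 siH3.3 and was not listed in D6 siNT, whose weakest listed region had 9 tags. One of the Morc1 places at +168 kb had 14 tags in D6 siNT and was not listed in D6 siH3.3, whose weakest had 8. The Atf7ip2 place at +44.2 kb had 15 and 13 tags, a ratio of 1.35 (0.598 to 3.07). D6T-, which received no siRNA, stood apart from both. Its ratios to D6 siNT were 2.99 (1.63 to 5.78) for L1td1, 4.47 (3.23 to 6.3) for Mylpf, 3.24 (1.98 to 5.5) for Dusp27, 2.9 (1.83 to 4.72) for Atf7ip2 and 1.67 (0.825 to 3.52) for Morc1. All 5 were above 1.5, as were 95.4% of 16799 genes with a region in both, whose median was 2.67, so that this difference ran through the libraries as a whole. On the relative scale the intervals of D6T- and D6 siNT overlapped for Dusp27 at +2.53 kb (0.946 and 0.815), L1td1 at +1.43 kb (0.595 and 0.556), the Atf7ip2 promoter (1 and 0.963) and Morc1 at +168 kb (0.311 and 0.519). They did not for the place at the neighbour's promoter counted for Mylpf, with 2.73 (2.37 to 3.13) and 1.7 (1.25 to 2.27). Tdh and Gtsf1 had 16 and 20 tags at D6T- and no region in either siRNA library. Their relative pileups at D6T-, 0.216 and 0.27, lie under the weakest that either siRNA library lists, 0.333, so this absence is not informative.

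**Figure D4:**
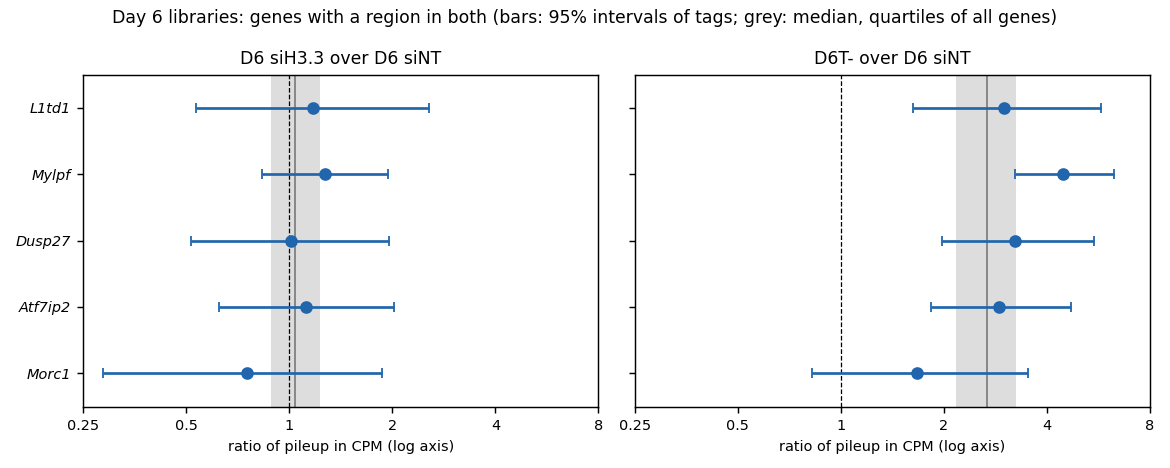
Ratios of the highest pileup in CPM (horizontal log axes) of D6 siH3.3 to D6 siNT (left) and of D6T- to D6 siNT (right) for the 5 genes with a region in both siRNA libraries, with 95% intervals of the tags as bars. Grey bands are the quartiles and grey lines the medians (1.04 and 2.67) of all genes, and all 5 left-hand intervals include the dashed line at 1.

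The promoters were described by base composition only. In the 250 bases before the TSS, GC content was 47.2% in Morc1, 48.4% in Atf7ip2, 48.8% in Dusp27, 51.6% in Gtsf1, 52.4% in Tdh, 56.4% in Mylpf and 58% in L1td1, against a median of 54% over protein-coding genes. The ratio of observed to expected CpG was under the protein-coding median of 0.496 in 6 of them, from 0.0532 in Mylpf to 0.354 in Tdh, and above it in L1td1 with 0.595. These bases lie before the outermost annotated TSS only. At accessible places over a TSS, the 201 bases around the summit had 64.7% GC and 16 CpG for Tdh (+0.255 kb). Atf7ip2 at +0.192 kb had 64.7% and 14, and Morc1 at its TSS 58.2% and 12. Other places that contain a TSS were lower, with 39.8% and 1 for Gtsf1 (+1.98 kb) and 48.8% and 2 for Tdh (+8.7 kb). The motifs were sought on both strands as ATGCAAAT (octamer), ACAATGG and ACAAAGG (Sox), GGGCGTG and GGGTGTG (Klf), TGANTCA (AP-1) and CACGTG (E-box), none of which overlapped another in the matches found. The strongest regions of Mylpf, Atf7ip2 and Gtsf1 held none of them, and that of Morc1, 429 bp at +183 kb, held 1 match to ACAATGG, which 6.08% of D16S+ regions hold.

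The wider pathways were described through lists of genes, whose counts were not tested. The share of all protein-coding genes with a region stands beside them. It was 70.1% at D0, 76.3% in D6T-, 58.7% in D9T-, 70.3% in D12S+, 69.9% in D16S+, 71.4% in iPSCs and 62.9% in D6 siNT. Of the 12 other enzymes of threonine and glycine one-carbon metabolism, 11 had a region at D0 and 12 from D12S+ on, and Amt, of the glycine cleavage system, was the late one, whereas none shared the first appearance of Tdh at D3. In the list on piRNAs and germline transposon silencing, 16 of 22 genes other than Morc1 and Gtsf1 had a region in D0 cells, 21 in D6T-, 4 in D9T-, 13 in D12S+, 14 in D16S+ and 20 in iPSCs. Those sharing a first region at D0 included Dnmt3l, the cofactor of DNA methylation in germ cells, Exd1, Fkbp6 and Gtsf1l, a relative of Gtsf1. The genes around SETDB1 and H3K9me3 were almost always accessible, with 9 of 9 others at D0, among them Cbx3 and Cbx5, which encode HP1 proteins, Fam208a and Morc2a. Of the 19 other genes of fast skeletal muscle, 10 had a region at D0, 14 at D6T-, 6 at D9T-, 10 at D16S+ and 11 in iPSCs. Actn3, Atp2a1, Casq1 and Ckm, which encode an actinin, a calcium pump, a calcium store protein and creatine kinase of muscle, were in the D0 group. At D9T-, the library with the fewest regions, the lists of one-carbon enzymes, piRNA genes and muscle genes had their lowest count, and the SETDB1 list had 8 of 9 there and in D6 siNT.

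Genes whose pattern over the 7 time-course libraries was nearest were found by the Euclidean distance of the highest pileup in CPM. For Tdh these were Gm17425, Fut9 and Ppm1n at distances of 0.433, 0.434 and 0.529, and for L1td1 Emb, Nwd1 and Cxcr7 at 0.489, 0.561 and 0.572. For Mylpf, whose values were those of the neighbour's promoter, they were Nfatc2ip, Kpnb1 and Ankrd54 at 0.646, 0.98 and 1.04. Dusp27 was followed by Trdn, Cdkl2 and Slain1 at 0.974, 1.17 and 1.34, and of these Trdn encodes triadin, a protein of the muscle calcium release unit. The nearest to Atf7ip2 were Dram1, Alad and Psmb9 at 0.32, 0.342 and 0.391, to Morc1 Prr15l, Dsg2 and Nr5a2 at 0.218, 0.227 and 0.304, and to Gtsf1 Osbpl7, 1700028P14Rik and 4930555F03Rik at 0.382, 0.508 and 0.514. Each distance is in CPM and rests on 7 single libraries.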

How the data were processed

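ATAC-Seq peak files of 9 mouse libraries, 1 per condition, were analysed. The authors mapped to mm9, removed duplicates and ambiguously mapped reads and listed accessible regions by MACS2 (version 2.1.0.20151222, no control library, q-value cutoff 0.05). Per the file headers, tags of 51 bp were extended to 200 bp and no local background was used. The deposited signal is the pileup, which counts the extended tags that cover a summit and was not scaled. The deposited fold enrichment is a ratio to evenly spread tags, and the deposited significance is the −log10 of the q-value. The submitters' processing notes name STAR, Picard and MACS2.

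Summits of a peak were joined and overlapping peaks merged. Genes came from GENCODE vM1 on mm9 (chrM left out, 37273 genes). CPM is the pileup over the total tags of the library, times 1000000. Intervals (95%) were exact Poisson for tags and Clopper-Pearson for ratios of tags. Tags are not all independent molecules. For a ratio, a fold of 1.5 was the fixed size. Atf7ip2's relative Atf7ip has more than 1 entry in the annotation and was left out of its list. Genes named were the 7 members, the 3 nearest genes of each and up to 4 genes of each list, in alphabetical order, that shared the member's first library. The members and lists were chosen with earlier results of these data known. Python 3.11.15, numpy 2.4.6, pandas 2.3.3, scipy 1.17.1 and matplotlib 3.10.9 were used, and the functions were tested on simulated data. Alternatives were q of at most 0.01, the stronger 50% of regions, 36708 strongest regions per library, promoters only, midpoints, scaling to shared regions, the same place in both siRNA libraries and, chosen after seeing the data, leaving out regions near the TSS of another gene or places where over 50% of the 51-base windows around the summit occur more than once in mm9.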

Additional observations from a re-analysis of the deposited data

How the results depend on the processing

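No paired analysis was possible because each condition had 1 library. None of the ratios of D6 siH3.3 to D6 siNT left its interval under any alternative, but this is a weak check. Most alternatives kept the same strongest region and so the same ratio, and scaling to shared regions multiplied all ratios by 1 common factor. A ratio was computed only where both libraries kept a region, which with 3 kb upstream only held for Atf7ip2 and Mylpf alone. With promoters of 1 kb upstream to 100 bp downstream of a TSS, regions were found for 3 members at D0, D3 and D12S+, 4 at D6T- and in iPSCs, and 1 at D9T- and in each siRNA library. With 3 kb upstream only, it was 3 at D9T- and in D6 siH3.3 and 2 in D6 siNT. Among the same number of strongest regions per library it was 3 at D0 and D3 and 4 at D6T-, and among the stronger 50% 3 at D0 and in D6 siNT. The shares of all genes under these settings were not computed, so these member counts have no background beside them. The first library, numbered from 1 at D0 to 7 for iPSCs, moved for Tdh from 2 to 3 at q of at most 0.01 and to 5 under the stronger 50% and the equal number. Under these 2 settings it moved to 2 and 6 for Gtsf1, 2 and 3 for L1td1, and 2 and 4 for Morc1. With 3 kb upstream only it was 2 for Dusp27 and 6 for Morc1, and with the short promoter 6 for Morc1 and Mylpf, while Dusp27 then had no region. Without regions near the TSS of another gene it was 6 for Mylpf, which then was strongest in library 7. Scaled to shared regions, the strongest library moved from 3 to 2 for Atf7ip2, from 6 to 7 for Gtsf1 and Morc1, from 3 to 4 for Mylpf and from 5 to 7 for Tdh, and it was 6 for Dusp27 and L1td1 as before. With 3 kb upstream only, and without places of repeated sequence, it was 3 for Gtsf1, which then had a region in 2 libraries in the second case. The cause was not tested beyond these constructions. Of the single pileups, 32 left their interval and 161 did not. Scaling to shared regions, which changes every value, moved 24 and left 31 within. Under the other alternatives most pileups kept the same value, and a pileup whose region was lost was not counted. Depth limits all of this, since 7 to 11 tags were needed for a region to be listed.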
